A study of Mus musculus with 12 samples.

Results

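The complement genes described here are 9 members of the innate immune cascade: C4b, C4a, C3, the 3 subunit genes of C1q (C1qa, C1qb and C1qc), C1ra, Serping1 and C3ar1. They were selected by gene symbol, from a list fixed with earlier results of these data known. All 9 were listed in both deposited tables, which hold 18223 and 17800 genes. In primary neuron cultures labelled H-Ras(G12V), C3 was higher than in mCherry cultures in every library, and it was the only member of the 7 tested that passed the test. That call sat at the threshold and was lost in several alternative fits. C3 also reached the minimum of 1 FPKM for the test only through the group where it was high. A count of 1 in 7 is close to the 17.0% of all tested genes called. C4b was higher in every H-Ras(G12V)-labelled library too but missed the threshold, and 1 of the 3 mCherry libraries had a level close to theirs. None of the 5 members tested passed between etoposide and DMSO, in a fit that called 0.453% of all tested genes and could miss moderate changes. The C1q subunit genes were high and low in much the same libraries as each other and as the microglial marker Tyrobp, though not as every microglial marker, and their groups overlapped in both comparisons.

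Complement is a set of plasma and tissue proteins that tag surfaces and cells for removal. In the classical pathway C1q binds its target, the proteases C1r and C1s cleave C4 and C2, and the resulting enzyme cleaves C3, whose fragments mark the target and act on receptors such as C3ar1, while Serping1 (C1 inhibitor) holds C1r and C1s in check. In mouse brain, C1q is made mainly by microglia, C4b and C3 are made by reactive astrocytes among other cells, and C1q and C3 take part in the removal of synapses by microglia.

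The libraries were made from primary neurons of C57BL/6 mice 10 days into each treatment, 3 libraries per group and 12 in all. The H-Ras(G12V)-labelled cultures over-expressed the active mutant of the small GTPase H-Ras from an adeno-associated virus, as a model of oncogene-induced senescence, and were set against mCherry, a fluorescent protein. The cultures titled etoposide, which had a wild-type genotype tag, received a topoisomerase II poison that breaks DNA, as a model of stress-induced senescence, and were set against cultures titled DMSO, the solvent. In these 6 libraries the treatment tag contradicts the title, library name and table column. Groups follow the titles, so each direction holds for the libraries titled etoposide. The sources used here do not give the viral promoter and serotype, the virus dose, the etoposide dose or the age of the donor mice. Nor do the labels say if replicate libraries stem from different cultures or animals. P-values therefore cover the spread between these libraries alone, and that spread may be technical.

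Expression is given as FPKM, fragment numbers corrected for transcript length and for the size of the library, and the values of a gene can be set against those of another gene on this scale since it is per length. Mouse Hras was at 38.41, 51.63 and 33.46 FPKM in the H-Ras(G12V)-labelled libraries, against 45.94, 42.98 and 44.2 FPKM in the mCherry libraries. The label is therefore not checked by this gene, and the sources used here do not give the species of the introduced H-Ras sequence. Depth, estimated roughly from the steps between low values, was 15500000 to 17700000 fragments per library in the H-Ras(G12V) and mCherry table and 25350000 to 30150000 in the etoposide and DMSO table. Some libraries stood apart from their group. Across the genes listed in both tables, the rank correlation between mCherry libraries 1 and 2 was 0.994, while mCherry library 3 reached 0.963 and 0.961 with them. Etoposide library 3 correlated at 0.917 and 0.945 with etoposide libraries 1 and 2 and at 0.968 to 0.986 with the DMSO libraries. All 12 libraries were kept, and results that rest on these libraries are given with and without them.

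The cultures held RNA of several cell types, by marker lists that contain no complement gene. The 10 neuronal markers, Rbfox3 and Tubb3 among them, summed to between 1159 and 1359 FPKM in H-Ras(G12V)-labelled libraries, 1730 and 2209 in mCherry, 626 and 2343 in etoposide and 1709 and 2042 in DMSO. Astrocyte markers, with Gfap the most abundant in H-Ras(G12V)-labelled libraries at 1320 to 2305 FPKM, summed to levels of the same order as neuronal markers. Microglial markers were low but present in every library, with summed levels from 5.23 to 142 FPKM. The 6 endothelial markers summed to at most 5.40 FPKM in any library, and Cldn5 was listed at 0 in every H-Ras(G12V)-labelled library. In such bulk samples, fewer cells of a type and less RNA per cell cannot be told apart.

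C4b and C4a are neighbouring copies on mouse chromosome 17, and how fragments are shared between them bears on every C4 value here. C4b encodes complement C4, and C4a encodes the mouse sex-limited protein, which is known to lack the hemolytic activity of C4. Their annotated transcripts (GENCODE M21), of 5379 and 5371 bases, had 95.9% identity over the alignment, with 188 substitutions. Of the 100-base windows of the C4b transcript, 16.5% (871 of 5280) also occurred unchanged in C4a, so a fragment from such a stretch cannot be assigned to either copy. The window below is the stretch of 60 bases where the copies differ most, with 13 differing bases in capitals. It begins at base 2761 of the C4b transcript and at base 2755 of the C4a transcript.
C4b: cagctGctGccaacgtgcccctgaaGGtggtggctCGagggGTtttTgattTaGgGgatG
C4a: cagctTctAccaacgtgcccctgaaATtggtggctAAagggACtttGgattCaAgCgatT
The sources used here do not give how the authors' counting treated fragments that fit both copies, so the C4a values, which were far lower than those of C4b, are uncertain.

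The sequences before the start sites of C3 and of the C1q genes C1qb and C1qc are shown because C3 was the called member and the C1q genes varied together. They are the 250 bases before the annotated start, on the gene's strand, at chr17:57228137-57228386 for C3, chr4:136886201-136886450 for C1qb and chr4:136892915-136893164 for C1qc, all on the minus strand. They were taken from RefSeq for GRCm38.p6, which is a later build than the mm9 named in the submitters' processing notes. RefSeq promoters were matched by symbol for 5 of the 9 members (C3, C1qb, C1qc, C1ra and C3ar1). Capitals mark letters that match a searched motif on either strand.
C3: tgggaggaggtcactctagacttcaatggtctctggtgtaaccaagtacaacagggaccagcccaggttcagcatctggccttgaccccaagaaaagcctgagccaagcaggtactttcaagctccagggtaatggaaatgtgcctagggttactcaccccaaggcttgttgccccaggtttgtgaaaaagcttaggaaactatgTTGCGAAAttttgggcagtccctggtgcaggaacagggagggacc
C1qb: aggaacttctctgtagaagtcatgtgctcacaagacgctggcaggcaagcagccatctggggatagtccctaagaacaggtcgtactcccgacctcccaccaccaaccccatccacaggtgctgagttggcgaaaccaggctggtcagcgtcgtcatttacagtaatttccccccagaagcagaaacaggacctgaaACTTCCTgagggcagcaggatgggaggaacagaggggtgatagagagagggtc
C1qc: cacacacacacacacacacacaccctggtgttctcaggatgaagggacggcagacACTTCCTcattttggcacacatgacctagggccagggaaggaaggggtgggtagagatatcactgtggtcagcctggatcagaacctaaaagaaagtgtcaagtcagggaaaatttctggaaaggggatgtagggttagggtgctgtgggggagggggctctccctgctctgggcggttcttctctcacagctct
In C3 the capitals are TTGCGAAA, 45 bases before the start, which fits the C/EBP letters TTGCNNAA found in 9.56% of 32851 mouse promoters of the same length. In C1qb and C1qc they are ACTTCCT, 53 and 195 bases before the start, the reverse complement of the PU.1 letters AGGAAGT, which 7.69% of promoters hold. C/EBP factors act on acute-phase genes and PU.1 on genes of the myeloid lineage. The other motifs searched were a TATA box (TATAAA, in 12.4% of promoters), IRF (GAAA, any 2 bases, GAAA; 2.98%), STAT (TTCNNNGAA, 7.02%) and NF-kappaB (GGG, any 3 bases, TTCC; 4.65%). C3ar1 held the TATA and NF-kappaB letters and C1ra held none of the 6 motifs. None of the matches overlapped another, and a match describes letters, not a site in use.

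**Figure D1:**
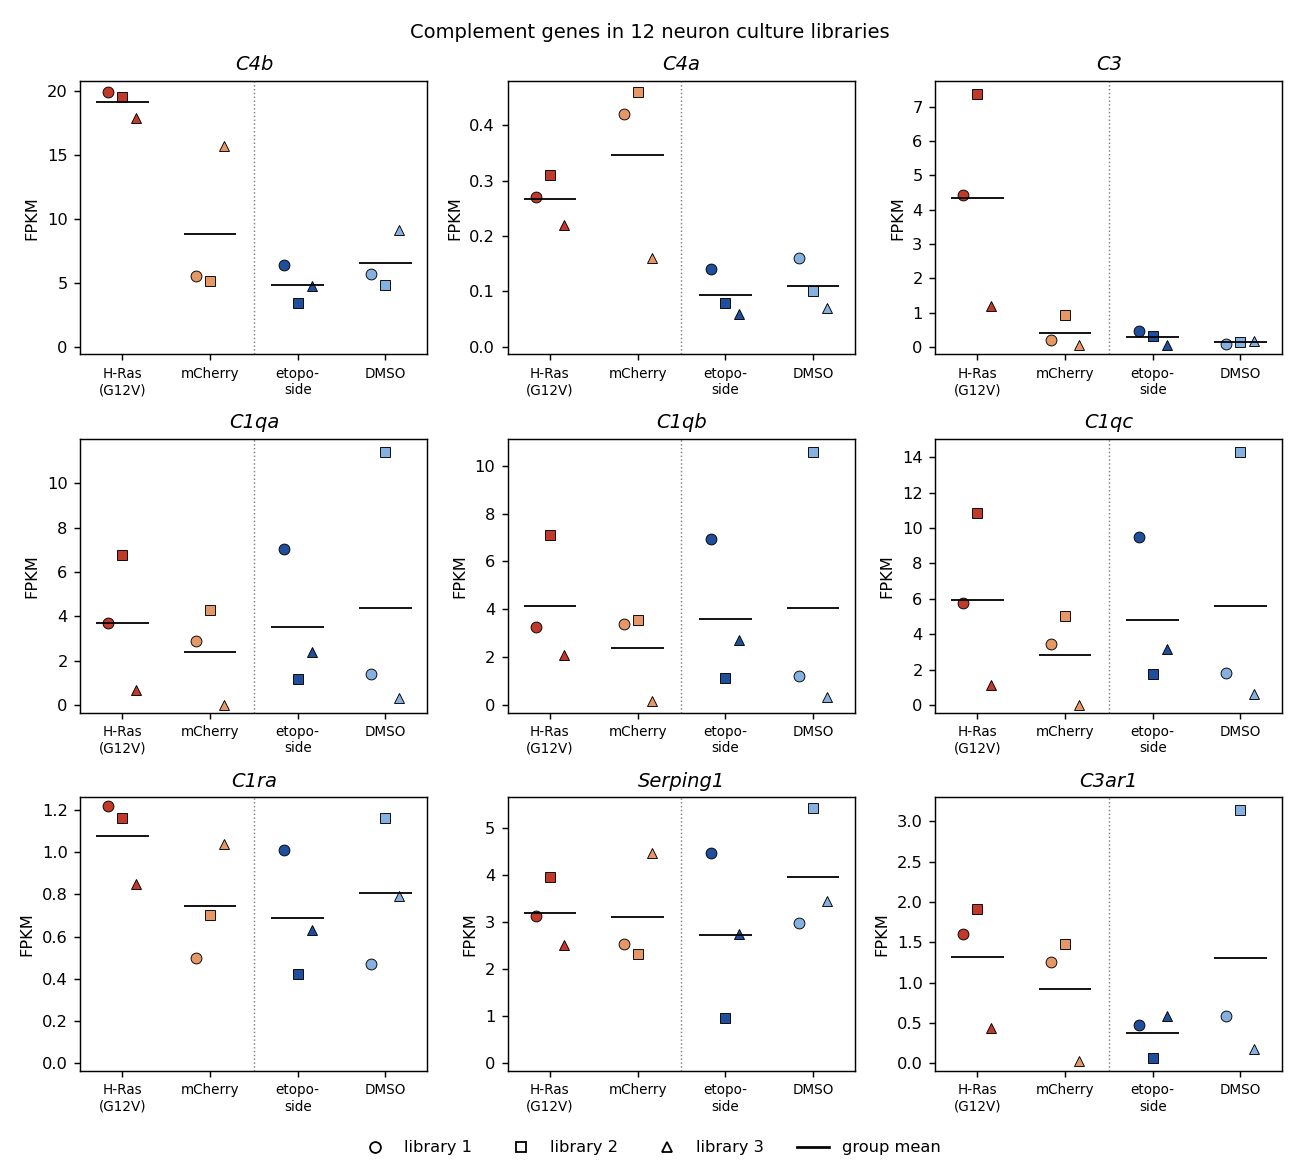
FPKM of the 9 complement genes in each library, with a panel per gene and its own linear axis starting near 0, libraries 1, 2 and 3 as circles, squares and triangles, and the group mean as a bar; the dotted line parts the 2 tables. C4b in the 3 H-Ras(G12V)-labelled libraries lies between 17.9 and 19.9 FPKM, with mCherry library 3 at 15.7 FPKM, and C3 is above 1 FPKM only in the H-Ras(G12V)-labelled libraries.

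C4b was the most abundant member in 10 of the 12 libraries. It was at 19.94, 19.54 and 17.89 FPKM in the H-Ras(G12V)-labelled libraries, against 5.55, 5.16 and 15.70 FPKM in the mCherry libraries. The H-Ras(G12V)-labelled libraries all lay above the mCherry libraries, but mCherry library 3 was close beneath them and far above the other mCherry libraries. The means were 19.1 ± 1.09 FPKM in H-Ras(G12V)-labelled and 8.80 ± 5.98 FPKM in mCherry libraries (SD, n = 3 each), a ratio of 2.17. Effects were tested within each table with limma on log2(FPKM + 1) for genes averaging at least 1 FPKM, with Benjamini-Hochberg adjustment over all genes tested and a threshold of 0.05. On this scale, which understates changes of low genes, the C4b difference was 1.20 ± 0.37 (log2, SE; 95% interval 0.33 to 2.06), and it missed the threshold with a limma adjusted p of 0.0655. The groups did not overlap for 2 of the 7 tested members, C4b and C3, both higher, beside 23.7% of all tested genes that did not overlap and were higher. Without mCherry library 3 the C4b difference was 1.66 with a limma adjusted p of 5.46e-05, a fit in which 44.9% of all tested genes were called.

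The summed astrocyte markers were high in the same libraries as C4b in the H-Ras(G12V) table. The 10 astrocyte markers summed to 3717, 3314 and 2577 FPKM in H-Ras(G12V)-labelled libraries 1, 2 and 3, against 1191, 1198 and 3153 FPKM in mCherry libraries 1, 2 and 3. The mCherry library with the high C4b level was thus also the one with the high astrocyte sum. Gfap, the most abundant of them in H-Ras(G12V)-labelled libraries, reached 1488 FPKM in mCherry library 3 but 507 and 519 FPKM in the other mCherry libraries, while Aldh1l1, another astrocyte marker, was at 44.9 FPKM there and at 50.0 and 49.2 FPKM in the others. Of the 10 astrocyte markers 2 passed as higher in H-Ras(G12V)-labelled libraries, Aldh1l1 and Sox9, beside 10.3% of all tested genes called higher. In the other table the astrocyte sums were 978, 622 and 885 FPKM in etoposide and 1394, 1033 and 1600 FPKM in DMSO libraries. The summed oligodendrocyte lineage markers had a similar course, at 942, 841 and 1030 FPKM in H-Ras(G12V)-labelled libraries, against 270, 206 and 708 FPKM in mCherry libraries. They summed to 100, 64.8 and 209 FPKM in etoposide libraries, against 665, 509 and 875 FPKM in DMSO libraries. The part of astrocytes or of oligodendrocyte lineage cells in the C4b levels was not tested.

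In the etoposide table C4b was at 6.42, 3.44 and 4.73 FPKM in etoposide libraries, against 5.72, 4.80 and 9.14 FPKM in DMSO libraries. The groups overlapped, and the highest value belonged to DMSO library 3, which also had the highest astrocyte sum of that table. The difference was -0.36 ± 0.33 (log2, SE; 95% interval -1.10 to 0.39; limma adjusted p = 0.568), and without DMSO library 3 it was -0.12. None of the 5 members tested in this table was called by limma, beside 0.453% of all 12371 genes called. Without adjustment, none had a p under 0.05 either (0 of 5). Without etoposide library 3, where 31.8% of all tested genes were called, none of the members was called either.

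C4a stayed under 0.5 FPKM in every library. It was at 0.27, 0.31 and 0.22 FPKM in H-Ras(G12V)-labelled libraries, against 0.42, 0.46 and 0.16 FPKM in mCherry libraries. It was at 0.14, 0.08 and 0.06 FPKM in etoposide libraries, against 0.16, 0.10 and 0.07 FPKM in DMSO libraries. Both pairs of groups overlapped, and the highest values were in mCherry libraries 1 and 2, where C4b was low. By the rough depth these levels rest on about 9 to 38 fragments, against 428 to 1695 for C4b. As a share of C4b, C4a was 1.35%, 1.59% and 1.23% in H-Ras(G12V)-labelled libraries, against 7.57%, 8.91% and 1.02% in mCherry libraries. The share was highest in the 2 mCherry libraries that resembled each other and was low in mCherry library 3. It was 2.18%, 2.33% and 1.27% in etoposide and 2.80%, 2.08% and 0.766% in DMSO libraries. C4a did not reach the expression minimum in either table. In a fit with no minimum its differences were -0.08 for H-Ras(G12V) (limma adjusted p = 0.608) and -0.02 for etoposide (limma adjusted p = 0.822).

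C3 encodes the protein on which all complement routes converge. It was at 4.43, 7.38 and 1.20 FPKM in H-Ras(G12V)-labelled libraries, against 0.19, 0.93 and 0.05 FPKM in mCherry libraries. Every H-Ras(G12V)-labelled library was above every mCherry library, although H-Ras(G12V)-labelled library 3 was close to mCherry library 2. The means were 4.34 ± 3.09 FPKM in H-Ras(G12V)-labelled and 0.390 ± 0.473 FPKM in mCherry libraries (SD, n = 3 each), a ratio of 11.1. The difference was 1.79 ± 0.49 (log2, SE; 95% interval 0.63 to 2.95; limma adjusted p = 0.0484). C3 was the only called member of 7 tested, beside 17.0% of all tested genes called in either direction and 10.3% called higher. The count of 1 in 7 is close to that background. C3 reached the expression minimum of 1 FPKM only through the H-Ras(G12V)-labelled libraries, as every mCherry library was under 1 FPKM. Its entry into the test thus depended on the group where it was high.

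The C3 call sat at the threshold. It was lost without either of H-Ras(G12V)-labelled libraries 1 and 2 (limma adjusted p = 0.148 and 0.130) and without either of mCherry libraries 1 and 2 (0.129 and 0.0709). It was also lost with libraries scaled to a common FPKM sum (0.0527), with median-of-ratios scaling (0.0538), with no expression minimum (0.0710) and with 5 FPKM added before the log (0.0695). The difference stayed above 0 in each of these fits and ranged from 0.74 to 3.31 over all alternatives run. By the rough depth C3 rested on between 4 and 563 fragments per library.

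In the etoposide table C3 was at 0.46, 0.31 and 0.06 FPKM in etoposide libraries, against 0.09, 0.14 and 0.17 FPKM in DMSO libraries. Etoposide libraries 1 and 2 were above all DMSO libraries and etoposide library 3 was below them, so the groups overlapped. C3 averaged under 1 FPKM there and was not tested. With no minimum its difference was 0.16 (limma adjusted p = 0.512).

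The C1q subunit genes C1qa, C1qb and C1qc encode the 3 chains of the recognition protein of the classical pathway. They stand side by side on mouse chromosome 4 in the RefSeq gene order, with C1qc between C1qb and C1qa. C1qa was at 3.69, 6.77 and 0.66 FPKM in H-Ras(G12V)-labelled libraries, against 2.88, 4.28 and 0 FPKM in mCherry libraries. C1qb was at 3.27, 7.11 and 2.08 FPKM in H-Ras(G12V)-labelled libraries, against 3.39, 3.56 and 0.15 FPKM in mCherry libraries. C1qc was at 5.75, 10.87 and 1.11 FPKM in H-Ras(G12V)-labelled libraries, against 3.46, 5.01 and 0 FPKM in mCherry libraries. In each case library 2 was the highest and library 3 the lowest of its group, and the groups overlapped. The differences were 0.52 ± 0.75, 0.74 ± 0.59 and 0.89 ± 0.83 (log2, SE) for C1qa, C1qb and C1qc, with limma adjusted p of 0.662, 0.416 and 0.485. The intervals were wide, reaching from -1.07 to 2.84 for C1qc. Without mCherry library 3, where C1qa and C1qc were listed at 0, the differences were -0.21, 0.08 and 0.09.

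The same genes varied as widely in the etoposide table. C1qa was at 7.06, 1.18 and 2.37 FPKM in etoposide libraries, against 1.42, 11.42 and 0.32 FPKM in DMSO libraries. C1qb was at 6.92, 1.15 and 2.72 FPKM in etoposide libraries, against 1.23, 10.59 and 0.35 FPKM in DMSO libraries. C1qc was at 9.50, 1.76 and 3.15 FPKM in etoposide libraries, against 1.81, 14.30 and 0.61 FPKM in DMSO libraries. DMSO library 2 was the highest and DMSO library 3 the lowest of the 6 for all 3 genes, so the DMSO group alone spanned the whole range. The differences were 0.19, 0.29 and 0.27 (log2) with limma adjusted p of 0.910, 0.856 and 0.873.

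Summed over the 3 genes, C1q was at 12.71, 24.75 and 3.85 FPKM in H-Ras(G12V)-labelled libraries, against 9.73, 12.85 and 0.15 FPKM in mCherry libraries. It was at 23.48, 4.09 and 8.24 FPKM in etoposide libraries, against 4.46, 36.31 and 1.28 FPKM in DMSO libraries. The highest and lowest sums of the 12 libraries were thus both in control groups. Some microglial markers, Tyrobp among them, were high and low in much the same libraries. Tyrobp, the microglial signalling adaptor, was at 13.60, 20.00 and 2.97 FPKM in H-Ras(G12V)-labelled libraries, against 5.47, 4.76 and 0 FPKM in mCherry libraries. It was at 15.03, 4.14 and 5.05 FPKM in etoposide libraries, against 2.69, 20.03 and 1.36 FPKM in DMSO libraries. The libraries with the most and the least Tyrobp were those with the most and the least C1q. Other markers of the list did not follow this course. Tmem119, a membrane protein of resting microglia, was at 0.27, 0.46 and 0.10 FPKM in H-Ras(G12V)-labelled libraries, against 1.54, 0.92 and 1.51 FPKM in mCherry libraries, and so was lower in each H-Ras(G12V)-labelled library and high in mCherry library 3, where C1q was lowest. It averaged under 1 FPKM, and with no expression minimum its limma adjusted p was 0.0204. Fcrls and Cx3cr1 also had lower means, 0.437 and 0.0567 FPKM in H-Ras(G12V)-labelled libraries, against 1.35 and 0.163 FPKM in mCherry libraries, with overlapping groups. The microglial marker P2ry12 went the other way, with means of 0.543 FPKM in H-Ras(G12V)-labelled and 0.243 FPKM in mCherry libraries, and its groups overlapped too.

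The 14 fixed microglial markers summed to 19.9 to 74.1 FPKM in H-Ras(G12V)-labelled, 5.23 to 28.8 in mCherry, 17.9 to 142 in etoposide and 8.78 to 62.6 in DMSO libraries. Siglech was listed at 0 in every mCherry library and is not listed in the etoposide table, and P2ry12 and Cx3cr1, defining genes of resting microglia, stayed under 1 FPKM in every library. Of 6 microglial markers tested between H-Ras(G12V)-labelled and mCherry libraries 1 was called higher, Cd68, beside 10.3% of all tested genes, and of 7 tested between etoposide and DMSO none was called by limma, beside 0.453%. Cd68, a lysosomal protein gene, followed a different course, at 97.43, 77.45 and 3.78 FPKM in etoposide libraries, against 3.92, 11.48 and 3.22 FPKM in DMSO libraries. Etoposide library 2, high in Cd68, had the second highest microglial sum of the 12 libraries, 89.9 FPKM, but a C1q sum of only 4.09 FPKM. The microglial sum holds no C1q gene, so the C1q sum was set against it as a ratio, with Cd68 left out. This ratio was 40.0%, 51.8% and 37.7% in H-Ras(G12V)-labelled libraries, against 45.2%, 56.3% and 5.02% in mCherry libraries. It was 53.2%, 32.8% and 58.4% in etoposide libraries, against 39.4%, 71.0% and 23.0% in DMSO libraries. Over the 11 libraries other than mCherry library 3, C1q ranged from 1.28 to 36.3 FPKM and its ratio to the sum without Cd68 from 23.0% to 71.0%. Set against all 14 fixed markers, with Cd68 kept, the ratio ranged more widely over these libraries, from 4.55% in etoposide library 2 to 58.0% in DMSO library 2. The part of microglial content in the C1q levels was not tested.

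**Figure D2:**
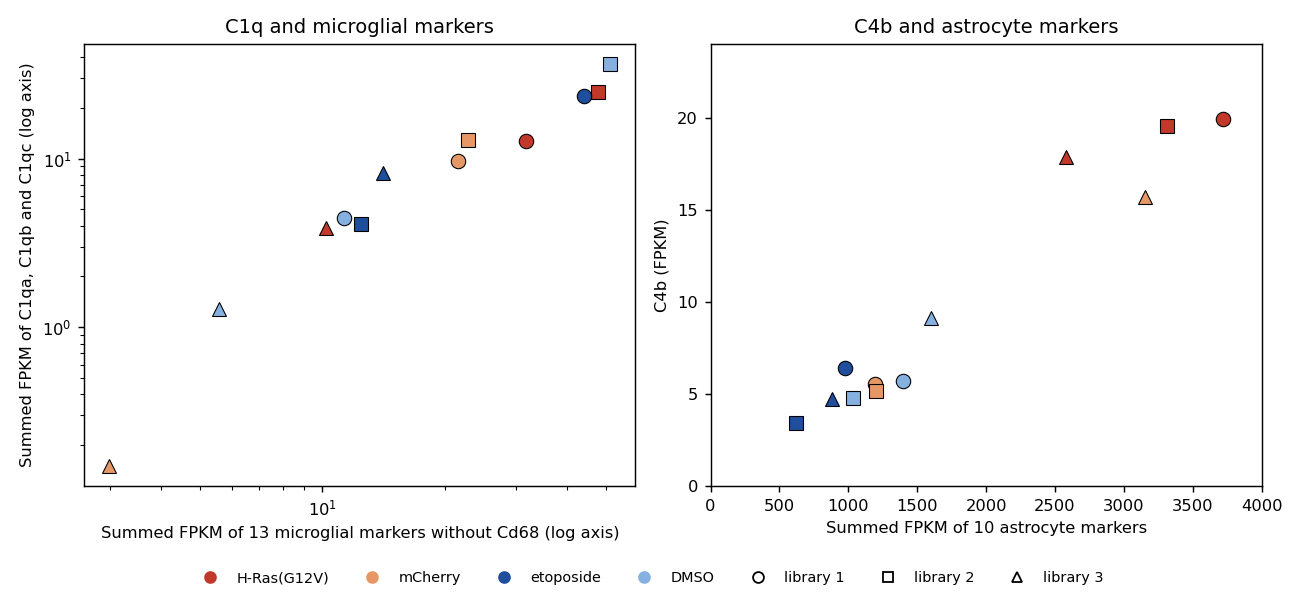
Left, summed FPKM of C1qa, C1qb and C1qc against the summed FPKM of 13 microglial markers without Cd68, both on log axes. Right, C4b in FPKM against the summed FPKM of 10 astrocyte markers, on linear axes from 0. Each point is a library, colours are groups and shapes are library numbers; C1q runs from 0.15 FPKM in mCherry library 3 to 36.3 FPKM in DMSO library 2 along the microglial axis, and mCherry library 3 lies with the H-Ras(G12V)-labelled libraries on the astrocyte axis.

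C1ra encodes the protease C1r. It was at 1.22, 1.16 and 0.85 FPKM in H-Ras(G12V)-labelled libraries, against 0.50, 0.70 and 1.04 FPKM in mCherry libraries. mCherry library 3 lay within the H-Ras(G12V) range and the other mCherry libraries below it. It was at 1.01, 0.42 and 0.63 FPKM in etoposide libraries, against 0.47, 1.16 and 0.79 FPKM in DMSO libraries. These groups overlapped throughout, and C1ra averaged under 1 FPKM in both tables. With no expression minimum its differences were 0.26 for H-Ras(G12V) (limma adjusted p = 0.266) and -0.10 for etoposide (limma adjusted p = 0.805). C1rb, a close copy in which 34.5% of the 100-base windows of the C1ra transcript recur, was at most 0.04 FPKM in any library.

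Serping1 encodes C1 inhibitor, the soluble regulator of C1r and C1s. It was at 3.12, 3.96 and 2.51 FPKM in H-Ras(G12V)-labelled libraries, against 2.54, 2.32 and 4.46 FPKM in mCherry libraries. The groups overlapped, and mCherry library 3 was the highest. The difference was 0.05 ± 0.23 (log2, SE; 95% interval -0.50 to 0.60; limma adjusted p = 0.898). In the other table Serping1 was at 4.47, 0.97 and 2.74 FPKM in etoposide libraries, against 2.97, 5.43 and 3.45 FPKM in DMSO libraries. Etoposide library 2 was the lowest of all 12, and etoposide library 1 lay among the DMSO libraries. The difference was -0.50 ± 0.40 (log2, SE; limma adjusted p = 0.519).

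C3ar1 encodes the receptor for C3a, the small fragment released when C3 is cleaved. It was at 1.60, 1.91 and 0.44 FPKM in H-Ras(G12V)-labelled libraries, against 1.25, 1.48 and 0.03 FPKM in mCherry libraries. As for C1q, library 3 was the lowest of each group and the groups overlapped. The difference was 0.31 ± 0.41 (log2, SE; limma adjusted p = 0.626), and without mCherry library 3 it was -0.09. C3ar1 was at 0.47, 0.07 and 0.59 FPKM in etoposide libraries, against 0.59, 3.14 and 0.17 FPKM in DMSO libraries. DMSO library 2, the library with the most C1q, also had the most C3ar1, and the other 5 libraries of that table stayed under 0.6 FPKM. C3ar1 was not tested there because of its low mean, and with no minimum its difference was -0.54 (limma adjusted p = 0.568).

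**Figure D3:**
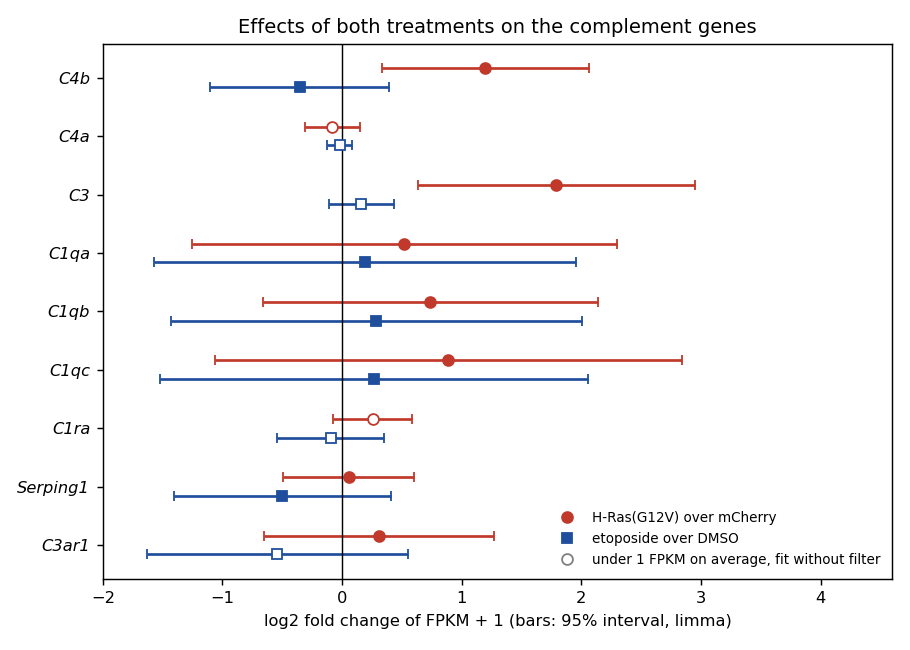
Log2 fold changes of the 9 complement genes on the log2(FPKM + 1) scale, H-Ras(G12V) over mCherry as red circles and etoposide over DMSO as blue squares, with 95% intervals from limma; open symbols are genes under the expression minimum, fitted without it. The H-Ras(G12V) intervals of C4b (0.33 to 2.06) and C3 (0.63 to 2.95) lie above 0, and every other interval includes 0.

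Whether the treatments differed in their effect was tested over the 12 libraries by subtracting the etoposide effect from the H-Ras(G12V) effect, in genes listed in both tables. The difference was 1.55 ± 0.51 (log2, SE) for C4b, with a limma adjusted p of 0.131, and 1.63 ± 0.56 for C3, with 0.150. Neither passed, and none of the 6 members tested was called by limma, beside 3.76% of all tested genes. C4b and C3 were the 2 members with an unadjusted p under 0.05, which cannot be read as an excess without the share of all genes. For C1qa, C1qb, C1qc and Serping1 the differences were 0.33, 0.45, 0.62 and 0.55, with limma adjusted p of 0.911, 0.857, 0.830 and 0.568. Without mCherry library 3 the C4b difference was 2.02 with a limma adjusted p of 0.00715, where 7.67% of all genes were called. Without both mCherry library 3 and etoposide library 3, the libraries that stood apart from their groups, C4b had a difference of 2.02 and a limma adjusted p of 0.00244, where 31.1% of all genes were called. Without H-Ras(G12V)-labelled library 3 the C3 difference was 2.17 with a limma adjusted p of 0.0121, where 2.20% of all genes were called. In these fits too, C3 reached the expression minimum only through the H-Ras(G12V)-labelled libraries, where it was high.

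Across the 4 groups the order of mean levels was described without a test, since the tables were normalised separately. C4b was highest in H-Ras(G12V)-labelled libraries, followed by mCherry, DMSO and etoposide, with means of 19.1, 8.80, 6.55 and 4.86 FPKM. Only the first of these groups did not overlap with the next. C3 followed the order H-Ras(G12V), mCherry, etoposide and DMSO, with means of 4.34, 0.390, 0.277 and 0.133 FPKM, and again only the first did not overlap with its neighbour. C4a was higher in both groups of the H-Ras(G12V) table than in both groups of the etoposide table, at means of 0.347 in mCherry, 0.267 in H-Ras(G12V)-labelled, 0.110 in DMSO and 0.0933 FPKM in etoposide libraries. Only the H-Ras(G12V)-labelled and DMSO groups did not overlap in this order. For C1qa, C1qb, C1qc, C1ra, Serping1 and C3ar1 every neighbouring pair of groups overlapped.

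The rest of the pathway was read from a list of 57 genes that includes the 9 members. Between H-Ras(G12V)-labelled and mCherry libraries 24 of them reached the expression minimum, and 2 were called higher (C3 and Clu) and 2 lower (Colec12 and Vtn). The share of 4 in 24 stood beside 17.0% of all tested genes. The median difference of the 24 was 0.13 (log2), beside 0.05 over all genes tested. With libraries scaled to a common FPKM sum, which moved the median of all genes by -0.13, the calls other than C3 stayed and the median of the list was 0.02. Without mCherry library 3 the counts were 5 higher, C4b among them, and 3 lower, of 23 tested, in the fit that called 44.9% of all genes.

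By role, none of 4 tested genes of classical initiation, 2 receptors or 10 membrane regulators was called by limma, beside 17.0% of all tested genes. In each of these roles 1 gene, C4b, Itgb2 or Sez6, had an unadjusted p under 0.05, with no share of all genes to set beside it. No terminal component reached the minimum. Every terminal component (Hc, which encodes C5, and C6 to C9) averaged under 1 FPKM, as did the alternative pathway protease gene Cfb, at 0.10, 0.10 and 0.18 FPKM in H-Ras(G12V)-labelled libraries, against 0.10, 0.05 and 0.10 FPKM in mCherry libraries. The C1s gene C1s1, next to C1ra on chromosome 6, was at 1.26, 0.99 and 1.23 FPKM in H-Ras(G12V)-labelled libraries, against 0.69, 0.54 and 1.21 FPKM in mCherry libraries. It shared with C1ra and C4b the high value in mCherry library 3. C2, the partner of C4 in the classical C3 convertase, was at 0.63, 0.54 and 0.46 FPKM in H-Ras(G12V)-labelled libraries, against 0.45, 0.58 and 0.31 FPKM in mCherry libraries.

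The called genes outside the members were 2 soluble regulators, Clu and Vtn, and Colec12, which the list places under lectin initiation. Clu, which encodes clusterin, an inhibitor of the membrane attack complex and a lipid carrier of astrocytes, was at 451.94, 517.89 and 329.37 FPKM in H-Ras(G12V)-labelled libraries, against 192.68, 202.94 and 178.48 FPKM in mCherry libraries. The groups did not overlap, and mCherry library 3 lay with its own group (difference 1.15, log2; limma adjusted p = 0.0105). The call was lost without H-Ras(G12V)-labelled library 1 (limma adjusted p = 0.0542). Vtn, which encodes vitronectin, another inhibitor of the terminal complex, was at 0.73, 0.33 and 0.48 FPKM in H-Ras(G12V)-labelled libraries, against 11.89, 10.49 and 24.42 FPKM in mCherry libraries (difference -3.37, log2; limma adjusted p = 0.00209). Colec12, a collectin scavenger receptor, averaged 4.49 ± 0.83 FPKM in H-Ras(G12V)-labelled and 15.0 ± 1.68 FPKM in mCherry libraries (SD, n = 3 each; limma adjusted p = 0.0026). That call was lost in 1 fit of all 12 libraries (limma adjusted p = 0.0812).

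Most fibroblast and mural markers were also lower in H-Ras(G12V)-labelled libraries, as Vtn and Colec12 were, while Clu was higher. They summed to 47.4 to 49.2 FPKM in H-Ras(G12V)-labelled libraries, against 172 to 280 FPKM in mCherry libraries, and 8 of 10 were called lower, beside 17.0% of all tested genes called in either direction. Col1a1, which encodes a collagen chain, was at 1.82, 3.70 and 1.22 FPKM in H-Ras(G12V)-labelled libraries, against 49.07, 37.84 and 15.26 FPKM in mCherry libraries. None of the 10 markers was at 0 in every library of a group. Within each control group the order of the Vtn levels over its libraries differed from that of the marker sums. mCherry library 3 had the most Vtn of its group, 24.42 FPKM, and the lowest marker sum, 172 FPKM. DMSO library 3 had the most Vtn of the DMSO libraries, 48.76 FPKM, with a sum of 97.3 FPKM, while DMSO library 2 had the least, 34.47 FPKM, with a sum of 409 FPKM. In the etoposide libraries Vtn, at 59.82, 13.94 and 33.72 FPKM, had the same order as the marker sums of 409, 84.1 and 267 FPKM. Colec12 had the order of the sums in etoposide libraries (16.13, 7.72 and 12.23 FPKM) and in DMSO libraries (10.32, 24.15 and 4.04 FPKM). It did not in mCherry libraries (15.44, 13.12 and 16.39 FPKM). The part of these cells in the levels of Vtn and Colec12 was not tested.

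Between etoposide and DMSO 20 of the listed pathway genes were tested by limma and none was called, beside 0.453% of all genes, with a median difference of -0.32 beside 0.09 over all genes tested. An unadjusted p under 0.05 was found for 3 of them, the membrane regulators Csmd2, Sez6 and Sez6l, with no share of all genes to set beside it. Clu averaged 165 ± 72.2 FPKM in etoposide and 128 ± 22.0 FPKM in DMSO libraries (SD, n = 3 each; limma adjusted p = 0.647). Vtn averaged 35.8 ± 23.0 FPKM in etoposide and 40.1 ± 7.64 FPKM in DMSO libraries (limma adjusted p = 0.682, n = 3 each). Without etoposide library 3, the counts were 1 higher and 5 lower of 20, namely Cfp higher and C4bp, Csmd2, Sez6, Sez6l and Sez6l2 lower, in the fit that called 31.8% of all genes, a share close to theirs. Vtn was the only pathway gene of 23 for which the difference of the effects passed (difference -3.01, log2; limma adjusted p = 0.0156).

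**Figure D4:**
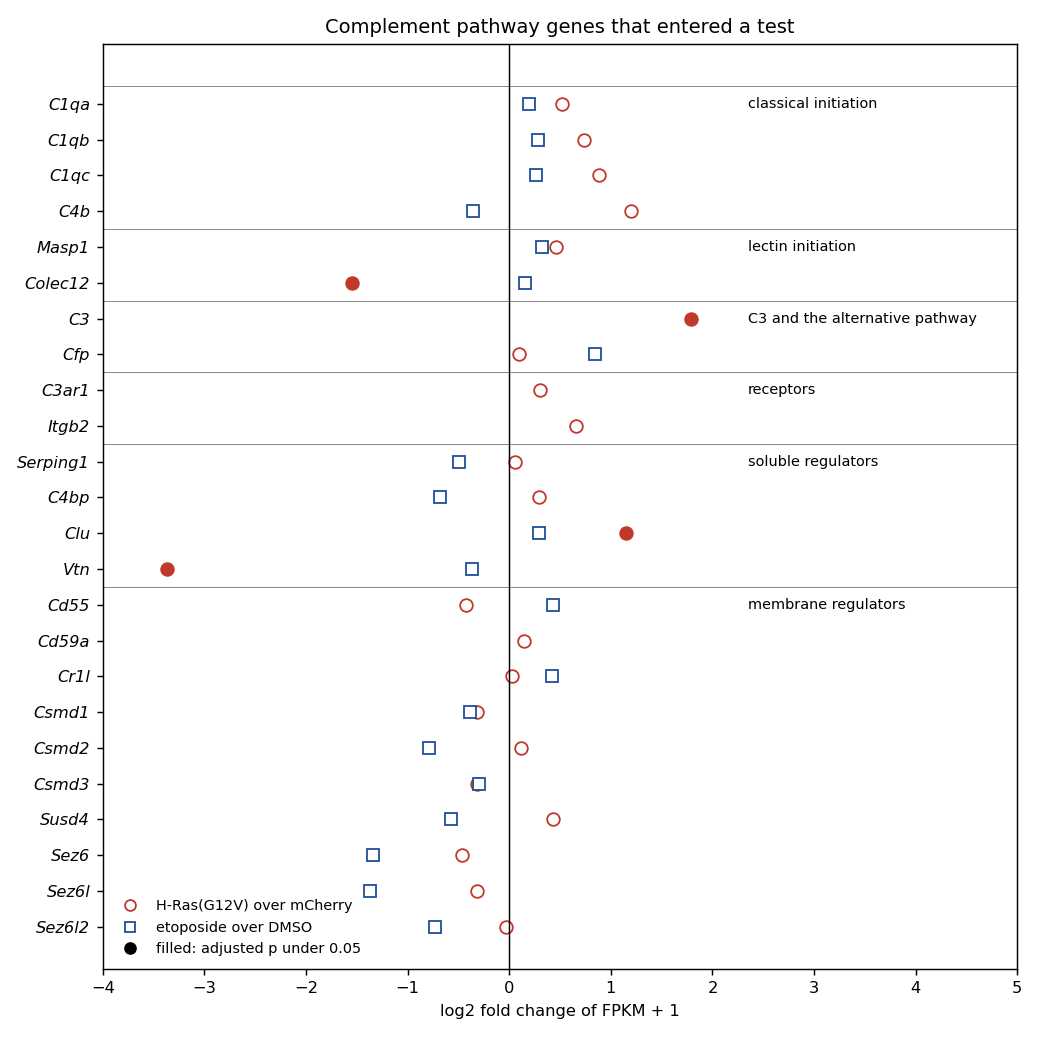
Log2 fold changes on the log2(FPKM + 1) scale of the complement pathway genes that reached 1 FPKM on average, grouped by role, with H-Ras(G12V) over mCherry as circles and etoposide over DMSO as squares; filled symbols passed the limma threshold. The 4 filled symbols are C3 and Clu on the higher side and Colec12 and Vtn on the lower side, all H-Ras(G12V) over mCherry, with Vtn farthest from 0 at -3.37.

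Transcription factors known to act on complement and acute-phase genes were read from a list of 10, 9 of which were tested. Between H-Ras(G12V)-labelled and mCherry libraries 3 were called, all higher, beside 10.3% of all tested genes called higher. Stat3, the mediator of interleukin 6 signalling, was at 78.45, 77.96 and 74.09 FPKM in H-Ras(G12V)-labelled libraries, against 34.20, 31.48 and 59.26 FPKM in mCherry libraries (limma adjusted p = 0.0386). Cebpd, a C/EBP factor of the acute phase, was at 19.40, 26.20 and 14.68 FPKM in H-Ras(G12V)-labelled libraries, against 3.04, 4.42 and 12.23 FPKM in mCherry libraries (limma adjusted p = 0.0452). Both shared with C4b the raised value in mCherry library 3. Irf1, an interferon-regulated factor, was at 6.48, 7.21 and 9.32 FPKM in H-Ras(G12V)-labelled libraries, against 4.10, 4.21 and 4.77 FPKM in mCherry libraries (limma adjusted p = 0.0296). All 3 calls were lost with libraries scaled to a common FPKM sum, with limma adjusted p of 0.0629 for Stat3, 0.0579 for Cebpd and 0.0511 for Irf1, while the direction stayed. They were also lost in 1 fit of all 12 libraries (limma adjusted p of 0.113 to 0.128). Leaving out any 1 library other than mCherry library 3 ended each call too, with limma adjusted p of 0.110 to 0.123 for Stat3, 0.0972 to 0.145 for Cebpd and 0.0652 to 0.108 for Irf1. Stat3 and Cebpd missed the threshold as well with median-of-ratios scaling (0.0520 and 0.0548) and with no expression minimum (0.0542 and 0.0696).

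In the etoposide table none of the 9 factors was called by limma, beside 0.453% of all tested genes. Of them 2, Cebpb and Cebpd, had an unadjusted p under 0.05, a count with no share of all genes to set beside it. Cebpb, another C/EBP factor, was at 56.64, 47.44 and 8.19 FPKM in etoposide libraries, against 5.73, 9.92 and 8.06 FPKM in DMSO libraries. Cebpd was at 33.69, 19.83 and 6.34 FPKM in etoposide libraries, against 4.59, 4.90 and 7.15 FPKM in DMSO libraries. In both, etoposide libraries 1 and 2 stood high and etoposide library 3 was level with DMSO. Without etoposide library 3 both were called, with limma adjusted p of 0.000311 for Cebpb and 0.00153 for Cebpd, in the fit that called 31.8% of all genes. C3 was under 1 FPKM throughout this table, at 0.46, 0.31 and 0.06 FPKM in etoposide libraries, against 0.09, 0.14 and 0.17 FPKM in DMSO libraries. Its etoposide libraries 1 and 2 thus lay above the DMSO libraries too. Any part of these factors in the C3 levels was not tested.

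The genes most like each member were ranked by Pearson's r of log2(FPKM + 1) over the 12 libraries, after each table's mean was subtracted, among 12178 genes. These values are descriptions, since the libraries share their treatments and culture make-up. C4b was most like Cd81 (r = 0.980), a tetraspanin, Lrig1 (0.978), Fam222b (0.966), Itpkb (0.960) and Cyp4f14 (0.959). Cd81 was at 486, 547 and 477 FPKM in H-Ras(G12V)-labelled libraries, against 218, 204 and 396 FPKM in mCherry libraries, and so shared the raised value of mCherry library 3. C3 was most like Crabp1 (0.955), a retinoic acid binding protein, Lcn2 (0.919), Ntsr2 (0.892), Fbrsl1 (0.887) and Rspo1 (0.880). Lcn2, which encodes lipocalin 2, an acute-phase protein of reactive astrocytes, was at 54.41, 102.16 and 16.23 FPKM in H-Ras(G12V)-labelled libraries, against 1.63, 4.80 and 6.73 FPKM in mCherry libraries. In the H-Ras(G12V)-labelled libraries it followed the same order as C3, with library 2 highest and library 3 lowest.

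C1qa was most like C1qc (0.994) and C1qb (0.971), and next Mpeg1 (0.965), Ms4a6d (0.960) and Fcer1g (0.955), all known from macrophages and microglia. Serping1 was most like Pdgfrl (0.923), Tns2 (0.861), Kank2 (0.854), Sod3 (0.848) and Tnfaip3 (0.833). Among the members, C3ar1 was nearest to C1qa (0.877) and C1ra to Serping1 (0.789). C4b was nearest to C1ra (0.652), was at 0.505 with C3 and was at -0.20 with C1qa. C4b and C4a were at -0.66, where C4a rests on about 9 to 38 fragments per library and the sharing of fragments between the copies is not known.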

How the data were processed

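Messenger RNA of 12 primary neuron cultures was enriched on oligo-dT beads and sequenced, per the labels' protocols. The authors deposited FPKM values per gene and library in 2 tables with 2 decimals, per the file headers. HISAT, Bowtie2, RSEM and the build mm9 are named in the submitters' processing notes, with no version or role, and the sources used here do not give how multi-mapped fragments were counted. Every sample column was used, and gene symbols are those of the tables.

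Two-sided tests used limma 3.58.1 (R 4.3.3; lmFit and eBayes with a trend) on log2(FPKM + 1). A gene was tested where it averaged 1 FPKM or more over the libraries in the fit. P-values were adjusted by Benjamini-Hochberg over all genes tested, with a threshold of 0.05. Counts of genes with an unadjusted p under 0.05 are given without the share of all tested genes, and cannot be read as an excess. Each table was fitted on its own, since the tables may be normalised separately, and the difference of the effects was fitted over the 12 libraries. FPKM gives no depth. The rough depths and fragment numbers rest on GENCODE M21 transcript lengths, which belong to another build than mm9, and limit precision as given beside the values. The code was tested on simulated data with normal noise at each gene's spread and changes put into better expressed genes. Of 100 genes changed by 1 (log2) it recovered 63 for H-Ras(G12V), 3 for etoposide and 5 for the difference of the effects. Of 100 changed by 2 it recovered 93, 61 and 65. A gene not called for etoposide or for the difference may thus have changed by such amounts. Summaries were made with Python 3.11.15.

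The members, the pathway, factor and marker lists, the tests and the rule for named genes were chosen with earlier results of these data known. By that rule all 9 members are named with every value, and called pathway genes and factors are named by adjusted p. For C4b, C3, C1qa and Serping1 the 5 most similar genes are named. A gene of the chosen pathway list is not reported here, and the counts leave it out. Other genes named were chosen after their values were seen. Alternatives were the amount added before the log, the expression minimum, 2 scalings, no trend, a replicate block, 1 fit of 12 libraries and leaving out each library. 3 more, chosen after seeing the data, averaged mCherry libraries 1 and 2 or left out 2 libraries at once.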

Additional observations from a re-analysis of the deposited data

Results flagged for a closer look

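For C4b the H-Ras(G12V)-labelled and the etoposide libraries lay on opposite sides of the mean of their controls, and neither effect passed (limma adjusted p = 0.0655 and 0.568). All 3 H-Ras(G12V)-labelled libraries (17.89 to 19.94 FPKM) were above the mCherry mean of 8.80 FPKM, and all 3 etoposide libraries (3.44 to 6.42 FPKM) were below the DMSO mean of 6.55 FPKM, which DMSO library 3 raised. The etoposide groups overlapped, and without DMSO library 3 the difference was -0.12 in place of -0.36 (log2). The difference of the effects was 1.55 on the log2 scale and did not pass (limma adjusted p = 0.131), with adjusted p between 0.00244 and 0.323 over the alternatives.

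Vtn, which encodes vitronectin, differed between the comparisons by -3.01 on the log2 scale (limma adjusted p = 0.0156). It averaged 0.513 FPKM in H-Ras(G12V)-labelled and 15.6 FPKM in mCherry libraries, and 35.8 FPKM in etoposide and 40.1 FPKM in DMSO libraries (n = 3 each). With 5 FPKM added before the log the difference was -1.54 and did not pass (limma adjusted p = 0.142).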

How the results depend on the processing

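None of the H-Ras(G12V) differences of C4b and C3 changed direction under any alternative, and C4b passed only without mCherry library 3 (1.66). With all libraries 1 member and 2161 genes were called. No member was called with 5 FPKM added, no minimum, a minimum of 5 FPKM, either scaling or mCherry libraries 1 and 2 averaged (0 each). Of the calls for H-Ras(G12V), 60.7% were higher on FPKM as deposited, 39.1% with a common FPKM sum and 49.1% with median-of-ratios scaling. The number of genes called was 496 in 1 fit of 12 libraries and 639 with mCherry 1 and 2 averaged. Leaving out 1 library gave 496 to 5716 genes and 0 to 2 members, the highest count without mCherry library 3.

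For etoposide 56 genes were called, 22 at a minimum of 5 FPKM, 194 in 1 fit of 12 libraries and 4524 without etoposide and DMSO libraries 3. Leaving out 1 library gave 4 to 3938 genes, the highest without etoposide library 3, and 0 members in each case. For the difference of the effects 475 genes were called, 256 at a minimum of 5 FPKM and 3947 without mCherry and etoposide libraries 3, where 1 member (C4b) was called. Leaving out 1 library gave 277 to 2868 genes and 0 to 1 members.

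Libraries share only a number across groups. Deviations of same-numbered libraries from their group means correlated at -0.04, 0.03 and 0.12 in the H-Ras(G12V) table and at -0.27, -0.17 and -0.15 in the other. With the replicate number as a block 1681, 12 and 345 genes were called for H-Ras(G12V), etoposide and their difference, and 2 members for H-Ras(G12V), C3 and C1qc.

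Differences that changed sign were those of uncalled genes, and the cause was not tested. For H-Ras(G12V), Serping1 (0.05) was -0.053 with a common sum, -0.00059 with median-of-ratios scaling and -0.059 with mCherry 1 and 2 averaged. With libraries left out it ranged from -0.082 to 0.28, C1qa (0.52) from -0.21 to 1.14 and C3ar1 (0.31) from -0.092 to 0.62, the last 2 below 0 without mCherry library 3 alone. For etoposide, C1qa (0.19) was -0.00998 with 5 FPKM added. With libraries left out C1qa ranged from -0.49 to 1.12, C1qb from -0.35 to 1.20 and C1qc from -0.41 to 1.21, each lowest without DMSO library 3 and highest without DMSO library 2. Clu ranged from -0.037 to 0.65 and Vtn from -0.83 to 0.18. For the difference of the effects C1qa ranged from -0.60 to 1.01, C1qb from -0.46 to 1.09 and C1qc from -0.33 to 1.31, each lowest without DMSO library 2 and below 0 without mCherry library 3 too. Depth limits C4a, C3 in control libraries and C1q in mCherry library 3, which rest on few fragments.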

Other observations

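The 3 C1q genes did not keep the same proportions in every library. C1qb made up 54.0% of the C1q sum in H-Ras(G12V)-labelled library 3 and 100% in mCherry library 3, where C1qa and C1qc were listed at 0. It made up 34.8% in mCherry library 1, and in the other 9 libraries its share was between 25.7% and 33.0%. The sum in mCherry library 3 was 0.15 FPKM, and C1qb rested there on about 2 fragments by the rough depth.

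Oligodendrocyte lineage markers, which hold no complement gene, summed to 841 to 1030 FPKM in H-Ras(G12V)-labelled libraries, against 206 to 708 FPKM in mCherry libraries, and 5 of 8 tested were called higher, beside 10.3% of all tested genes. They summed to 64.8 to 209 FPKM in etoposide libraries, against 509 to 875 FPKM in DMSO libraries, and 3 of 7 tested were called lower, beside 0.453% of all tested genes called in either direction. Olig2, the lineage transcription factor, was at 185, 190 and 242 FPKM in H-Ras(G12V)-labelled libraries, against 47.7, 37.6 and 101 FPKM in mCherry libraries. It was at 22.8, 16.9 and 31.4 FPKM in etoposide libraries, against 112, 91.5 and 133 FPKM in DMSO libraries, so that neither pair of groups overlapped. Their part in the complement levels was not tested.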
